A study of Mus musculus with 4 samples.

Results

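The 5 genes described here are Tox, Tox2, Nr4a1, Nr4a2 and Nr4a3, chosen by symbol among the 28692 genes of the count tables. TOX is an HMG-box DNA-binding protein that, in mice, is needed for exhausted CD8 T cells to form and persist in chronic infection and tumours, and TOX2 is its close relative. NR4A1, NR4A2 and NR4A3 are orphan nuclear receptors whose genes are switched on quickly after T cell receptor and calcium signalling, with NFAT among their inducers. In tumour-infiltrating CD8 T cells the TOX and NR4A families are known for holding cells in a dysfunctional, PD-1-expressing state, and NR4A genes also act in monocytes and dendritic cells.

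C57BL/6 mice bore B16-F10 tumours, grown from a melanoma line that arose in the same strain, and were given Pmel-1 CD8 T cells on day 3 after tumour implantation. The transgenic T cell receptor of Pmel-1 cells recognises gp100, a pigment cell antigen of the tumour. In the IRF4 arm they had been transduced with IRF4-GFP, and in the control arm with a GFP control, so both arms received engineered cells. On day 14 the transferred Pmel-1 cells and the endogenous CD45+ tumour-infiltrating leukocytes of each arm were sorted, giving 4 droplet 3' RNA libraries: transferred IRF4, transferred control, endogenous IRF4 and endogenous control. The labels do not state how many mice stand behind a library.

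With 1 library per group there was no replicate, so no test was made, and the 95% intervals below cover counting error only. Filtering kept 15132 of 17711 barcodes, of which 572, 2513, 6371 and 5676 belonged to the libraries in the order above, with median depths between 8437 and 19963 unique molecular identifiers (UMIs). Pairs of libraries shared between 0 and 18 barcode sequences. Cells were sorted into classes by marker transcripts, with none of the 5 genes among the markers, and 15.4% to 26.5% of kept cells per library stayed unassigned. The CD8 T-like class held 463, 1953, 2032 and 690 cells, with Cd8a between 608 and 805 CPM (UMIs scaled to a total of 1000000 per class and library) and Cd4 at 0 UMIs in all 4 libraries. The gate for this class itself asked for a Cd8a or Cd8b1 UMI and for no Cd4 UMI, so these values do not check it. In the transferred IRF4 and control libraries unassigned cells had median depths of 25084 and 43131 UMIs, against 15964 and 18668 in CD8 T-like cells. In the endogenous pair the medians were 7955 and 11362 UMIs, against 10550 and 8624. The part of this loss of cells in the ratios below was not tested. Irf4 stood at 27.8 CPM in transferred IRF4 cells and 26.0 CPM in transferred control cells (ratio 1.07, 0.949 to 1.20). The labels do not say whether the vector carries the 3' end that this assay counts, so that ratio is no check of which library holds it. Red cell transcripts separated the arms, with a summed level of 0.434 CPM in endogenous IRF4 CD8 T-like cells against 1040 CPM in endogenous control cells, and 0.318 against 82.1 CPM in the transferred pair. In all 10 other endogenous classes compared, each red cell transcript that was measured was likewise lower in the IRF4 arm, and the part of this library difference in the results below was not tested.

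The 250 bases upstream of the RefSeq start (GRCm38.p6) are shown for the 3 NR4A genes, whose transcripts were found together in the same cells. This display was chosen after the TGACG counts of the windows had been seen, so the shares of all windows given below are no test. Capitals mark TGACG or its reverse complement CGTCA, the core of the cAMP response element to which CREB and related factors bind.
Nr4a1, chr15:101266596-101266845, plus strand: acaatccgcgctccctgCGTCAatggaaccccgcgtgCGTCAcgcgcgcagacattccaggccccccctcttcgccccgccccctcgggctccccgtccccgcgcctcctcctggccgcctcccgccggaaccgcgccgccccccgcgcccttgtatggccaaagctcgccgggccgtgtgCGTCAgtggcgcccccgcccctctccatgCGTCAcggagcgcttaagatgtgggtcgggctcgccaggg
Nr4a2, chr2:57124004-57124253, minus strand: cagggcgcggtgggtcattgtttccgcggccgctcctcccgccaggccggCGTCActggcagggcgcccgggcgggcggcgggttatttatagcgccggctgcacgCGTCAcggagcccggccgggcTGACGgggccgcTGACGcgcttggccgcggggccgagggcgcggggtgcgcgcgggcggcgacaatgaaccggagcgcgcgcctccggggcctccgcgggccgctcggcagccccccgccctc
Nr4a3, chr4:48045055-48045304, plus strand: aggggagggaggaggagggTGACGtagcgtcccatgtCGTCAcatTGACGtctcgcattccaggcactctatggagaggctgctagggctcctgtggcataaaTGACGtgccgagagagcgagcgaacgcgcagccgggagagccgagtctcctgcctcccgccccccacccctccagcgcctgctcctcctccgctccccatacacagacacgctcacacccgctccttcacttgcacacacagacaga

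Each of the 3 windows held 4 TGACG matches, counted on both strands. They began 233, 213, 69 and 40 bases before the start in Nr4a1, 200, 144, 123 and 111 in Nr4a2, and 231, 213, 205 and 147 in Nr4a3. Among 32851 RefSeq windows of the same length, 17.8% held at least 1 match, and 45 windows (0.137%) held 4 or more. The full element TGACGTCA, which would count as 2 overlapping matches, was in none of the 3 windows and in 1.55% of all windows. Tox2 had 5 of the RefSeq windows, with 1 TGACG match in 1 of them and 0 in the other 4. Tox had no RefSeq window, so its upstream bases were not searched for any motif. The NFAT core GGAAA was in the Nr4a2 window, in 2 of the 5 Tox2 windows and in 55.6% of all windows, and the NR4A monomer element AAAGGTCA was in none of the members' windows and in 1.34% of all. The serum response core is a loose pattern of CC and GG with 6 bases of any kind between them. It occurred 2 times in Nr4a1, 3 times in Nr4a2 and not in Nr4a3. Each of the 5 Tox2 windows held it 3 to 5 times, and 67.1% of all windows held it. Such matches describe letters and not occupied sites. In the GENCODE annotation of mm10, Tox lies on chromosome 4 from 6686353 to 6991557 on the minus strand and Tox2 on chromosome 2 from 163203125 to 163324170 on the plus strand. The Nr4a1 gene spans 101254269 to 101274795 there, so its RefSeq window lies inside the longer annotated gene, and the Nr4a3 gene is annotated from 48045153, inside its window.

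Tox was highest in the CD8 T-like cells of the 2 endogenous libraries. In CD8 T-like cells it stood at 61.6 CPM (57.3 to 66.1) in the transferred IRF4 library, 94.8 CPM (92.2 to 97.4) in transferred control, 192 CPM (187 to 197) in endogenous IRF4 and 151 CPM (143 to 159) in endogenous control. Both endogenous libraries were thus above both transferred ones. Outside CD8 T cells, Treg-like cells were highest, with 90.3 CPM in the IRF4 arm and 66.1 CPM in the control arm. Both stood above the 61.6 CPM of transferred IRF4 CD8 cells, the control-arm level with an overlapping interval (52.2 to 82.4). CD4 T-like cells held 57.2 and 35.8 CPM, NK-like cells 31.7 and 33.9 CPM and gamma delta T-like cells 25.6 and 28.6 CPM. Of 25 pairs of a library and a class with at least 50 cells, 12 reached 10 CPM and 5 held no Tox UMI. In that order of levels, transferred control CD8 cells and IRF4-arm Treg-like cells were neighbours with overlapping intervals, and 3 of the neighbouring pairs had intervals apart. Monocyte or macrophage-like cells, which served as a background for free RNA, held 0.703 CPM in the IRF4 arm (6 UMIs in 653 cells) and 0.265 CPM in the control arm (6 UMIs in 1200 cells).

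Tox2 was sparse. The CD8 T-like cells held 44 UMIs in the transferred IRF4 library, 20 in transferred control, 440 in endogenous IRF4 and 31 in endogenous control. Those counts correspond to 3.50, 0.360, 12.7 and 3.16 CPM, so the endogenous IRF4 library was the only 1 of the 25 pairs at 10 CPM or more. Across those pairs 14 held no Tox2 UMI.

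Nr4a1 was a monocyte transcript as much as a T cell one. Its highest levels were 158 CPM (144 to 172) and 124 CPM (115 to 133) in nonclassical monocyte-like cells of the IRF4 and control arms, a cell type that in mice depends on NR4A1. In those cells 61.0% and 53.7% carried at least 1 Nr4a1 UMI. CD8 T-like cells held 30.8 CPM (27.8 to 34.0) and 41.0 CPM (39.4 to 42.8) in the transferred IRF4 and control libraries, and 14.7 CPM (13.4 to 16.0) and 18.0 CPM (15.5 to 20.9) in the endogenous pair. All 4 CD8 levels were thus below both nonclassical monocyte levels, and 21 of the 25 pairs reached 10 CPM.

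Nr4a2 and Nr4a3 peaked in mature DC-like cells, the dendritic cells that express Ccr7 and travel to lymph nodes. The 63 such cells of the control arm held 198 CPM of Nr4a2 (171 to 229) and 322 CPM of Nr4a3 (287 to 360), and 77.8% of them carried an Nr4a3 UMI. The IRF4 arm had 48 such cells, under the 50 asked for, with 237 CPM of Nr4a2 and 650 CPM of Nr4a3. Nr4a1 was low in the same cells, at 8.40 and 9.12 CPM in the control and IRF4 arms, and Tox had no UMI in either, which allows up to 3.15 and 3.91 CPM at 3 counts.

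In CD8 T-like cells Nr4a2 stood at 126 CPM (120 to 133), 133 CPM (130 to 136), 103 CPM (99.5 to 106) and 121 CPM (114 to 128) in transferred IRF4, transferred control, endogenous IRF4 and endogenous control cells. These 4 levels lay close together and directly below the mature DC-like level in the order of pairs, with the intervals of transferred IRF4, transferred control and endogenous control cells overlapping between neighbours. Nr4a3 spread more widely, at 51.4 CPM (47.5 to 55.5), 73.0 CPM (70.8 to 75.3), 12.7 CPM (11.5 to 13.9) and 34.9 CPM (31.3 to 38.8). Both transferred libraries held more Nr4a3 than both endogenous ones. For Nr4a3, cDC1-like cells of the IRF4 arm (87.4 CPM) and control-arm Treg-like cells (85.5 CPM) also stood above the CD8 levels, with overlapping intervals, as did IRF4-arm B-like cells (76.1 CPM), where 1 cell carried most of the UMIs. In those cDC1-like cells 2 cells carried at least 50% of the UMIs in each arm.

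**Figure D1:**
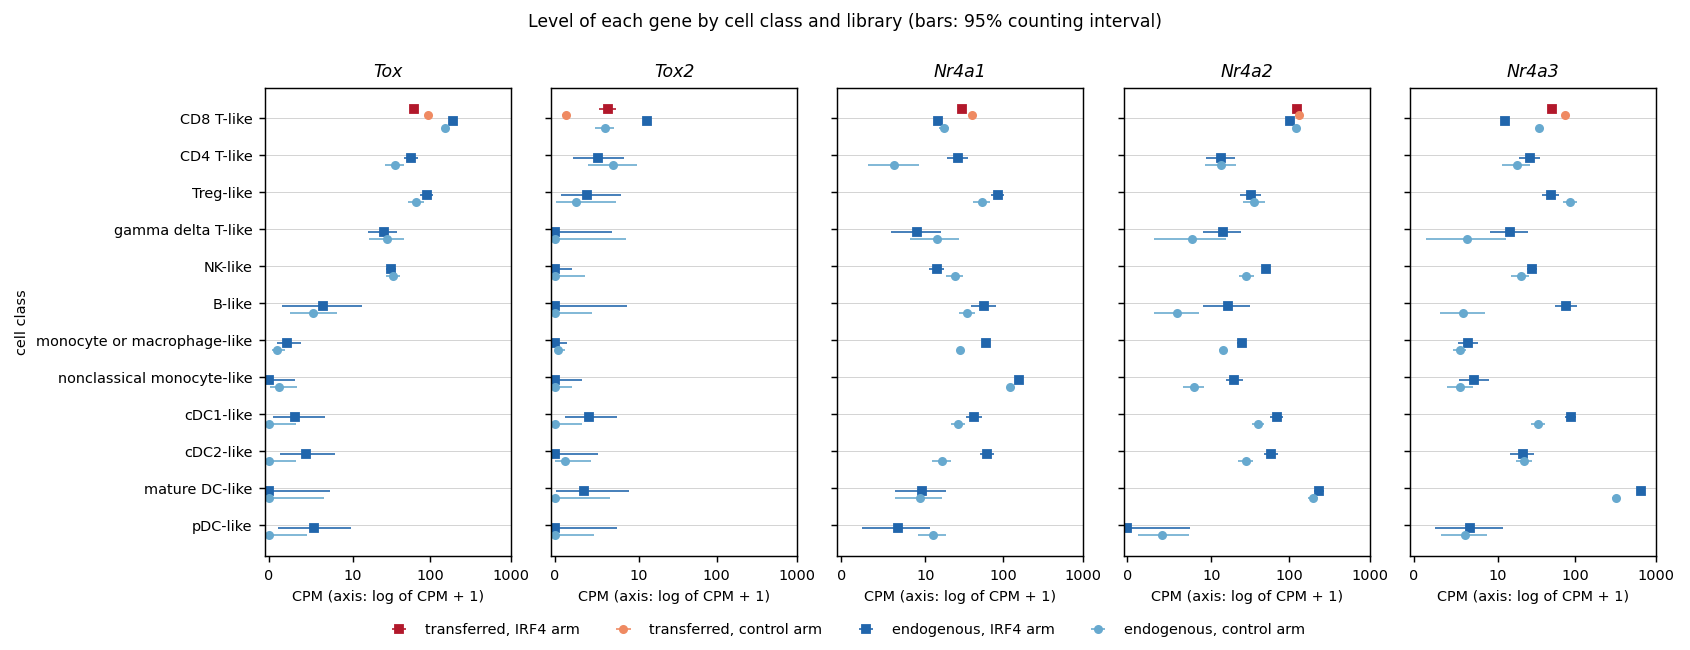
Level of each gene in CPM (horizontal axis, log of CPM + 1) by cell class (vertical axis), with squares for the IRF4 arm, circles for the control arm, red tones for transferred and blue tones for endogenous cells, and bars for the 95% counting interval. Classes with at least 48 cells in a library are drawn. Tox sits to the right in T and NK classes, Nr4a1 in nonclassical monocyte-like cells (124 and 158 CPM), and Nr4a2 and Nr4a3 in mature DC-like cells.

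The first comparison asked whether transferred cells differed with IRF4 transduction. A gene was called higher or lower when it reached 10 CPM in either library and its log2(CPM + 1) difference passed 1.5-fold, and 6.31% of 7443 measured genes were called in this comparison. Of the 5 genes 4 were measured and 1 was called, which was Tox, at a ratio of 0.650 (0.602 to 0.701) in the IRF4 arm over control. Nr4a3 had a ratio of 0.704 (0.647 to 0.765), Nr4a1 of 0.751 (0.672 to 0.836) and Nr4a2 of 0.946 (0.895 to 0.999). All 4 measured genes thus pointed lower in the IRF4 arm, and 3 of them did not pass 1.5-fold. Tox2 pointed the other way, with a ratio of 9.72 (5.61 to 17.4), but both levels were under 10 CPM and it was not called. The Tox call sat at the threshold and held in 8 of 14 other settings, with ratios between 0.631 and 0.810, all below 1. The Nr4a2 ratio was below 1 in 10 of the 14, with a highest value of 1.06.

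The share of transferred cells with a Tox UMI, after every cell had been thinned to 2000 UMIs, was 15.8% (14.2 to 17.5) in control cells against 11.4% (8.69 to 14.7) in IRF4 cells. Without thinning the shares were 59.9% in control cells and 44.9% in IRF4 cells, at class median depths of 18668 and 15964 UMIs. In monocyte or macrophage-like cells, which should lack Tox, thinned shares were 0 of 649 cells in the IRF4 arm, which allows up to 0.462%, and 0.169% in the control arm, at class median depths of 11967 and 15614 UMIs. The Tox difference between arms was found in transferred cells with a UMI of Tcf7, the stem-like T cell factor TCF-1, at 56.6 CPM in 232 cells against 97.8 CPM in 1499 cells (ratio 0.579, 0.526 to 0.635). In cells without a Tcf7 UMI the levels were 72.3 CPM in 231 cells and 70.7 CPM in 454 cells (ratio 1.02, 0.879 to 1.19). The 2 ratios have intervals apart, and their difference has no replicate. Cells with a Tcf7 UMI were 50.1% of the IRF4 arm and 76.8% of the control arm, and they were deeper, with medians of 26414 and 22477 UMIs against 11703 and 9122 without one.

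Other exhaustion regulators, from lists chosen with results of these data known, moved in different directions in the transferred cells. Among 11 measured exhaustion transcription factors outside the 5 genes, Prdm1, which encodes BLIMP-1, was called higher at 17.2 against 2.61 CPM (ratio 6.58, 5.31 to 8.18). Ikzf2 was called lower at 45.2 against 260 CPM (ratio 0.174), as was Eomes, a T-box factor of memory and exhausted cells, at 3.90 against 11.3 CPM (ratio 0.345). Among 8 measured inhibitory receptors and exhaustion surface genes, Havcr2 (ratio 3.63), Ctla4 (2.20) and Lag3 (2.18) were called higher and Cd101 (0.547) lower, while Pdcd1, which encodes PD-1, stood at 248 and 250 CPM (ratio 0.994). Of 10 measured stem-like genes 7 were called lower and 0 higher, with a median log2 difference of -0.84 against 0.01 over all measured genes, and Tcf7 itself stood at 85.3 against 167 CPM. A list of early response genes held mostly transcription factors induced by the T cell receptor, but also Klf2, Ier3, Nfkbia and Nfkbid. Of its 18 measured genes, Fos (ratio 1.61), Fosb (1.91) and Klf6 (1.66) were called higher and 0 lower. The median log2 difference of the 18 was 0.11. Of 10 measured genes of calcineurin and NFAT signalling, Nfat5 was called lower (0.661) and 0 were called higher, with Nfatc1 at 60.4 and 62.3 CPM. Tox4, a relative of Tox outside the list of 5, stood at 55.8 and 52.8 CPM.

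A further comparison set the endogenous CD8 T-like cells of both arms against each other, IRF4 over control, and 7.94% of 7659 measured genes were called. All 5 genes were measured and 2 were called. Tox2 was higher in the IRF4 arm, at 12.7 against 3.16 CPM (ratio 4.03, 2.80 to 6.01). Nr4a3 was lower, at 12.7 against 34.9 CPM (ratio 0.363, 0.314 to 0.419). Tox had a ratio of 1.27 (1.20 to 1.35), Nr4a2 of 0.853 (0.799 to 0.912) and Nr4a1 of 0.814 (0.685 to 0.972), none of them past 1.5-fold. Tox and Tox2 thus pointed higher and the 3 NR4A genes lower in the IRF4 arm of endogenous cells, whereas Tox pointed lower in the IRF4 arm of transferred cells. The directions of Nr4a2 and Nr4a1 were kept in 10 and 12 of 14 other settings, with ratios up to 1.45 and 1.39. Tox2 and Nr4a3 were each called in 13 of 14, with ratios from 1.997 to 6.03 and from 0.278 to 0.680, in which thinning to 2000 UMIs gave the values nearest to 1. The Nr4a3 ratio rested on few cells, since 10 of 690 control cells and 28 of 2032 IRF4-arm cells carried at least 50% of its UMIs. Thinned shares of cells with an Nr4a3 UMI were 3.62% (2.36 to 5.30) in the control arm and 1.87% (1.33 to 2.56) in the IRF4 arm, with overlapping intervals. Monocyte or macrophage-like cells had shares of 0.169% in the control arm and 0.616% in the IRF4 arm.

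Among other exhaustion transcription factors in the endogenous CD8 T-like cells, 3 of 11 were called higher, namely Maf (ratio 3.49), Eomes (2.37) and Batf, the partner of IRF4 (1.64). Rbpj, the DNA-binding factor of Notch signalling, was called lower (0.506). Of 10 measured stem-like genes 7 were called lower, Ccr7 (0.280) and Tcf7 (0.638) among them, and 1, Myb (2.14), higher. The stem-like median log2 difference was -0.75, against 0.02 over all measured genes. Of 11 measured inhibitory receptors and surface genes, Ctla4 was called higher (1.86) and Cd244 (0.433) and Tnfrsf9 (0.567) lower, with Pdcd1 at 374 against 256 CPM (ratio 1.46). Melanoma transcripts summed to 26.6 CPM in the IRF4 arm and 2.14 CPM in the control arm of these cells, and their part in the results was not tested.

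The other 2 comparisons set transferred against endogenous CD8 T-like cells within each arm. They share their libraries with those between arms, so the values stand side by side and are not independent. In the control arm 19.4% of 7774 measured genes were called, and 3 of 4 measured genes of the 5 were. Tox was lower in transferred cells (ratio 0.628, 0.593 to 0.666), while Nr4a1 (2.28, 1.95 to 2.67) and Nr4a3 (2.09, 1.87 to 2.34) were higher. In the IRF4 arm 16.1% of 7562 measured genes were called, and 4 of the 5 were. Tox (0.321, 0.298 to 0.346) and Tox2 (0.275, 0.197 to 0.376) were lower and Nr4a1 (2.10, 1.84 to 2.40) and Nr4a3 (4.06, 3.59 to 4.59) higher in transferred cells. Nr4a2 passed 1.5-fold in neither arm, with ratios of 1.11 and 1.23. The Nr4a1 and Nr4a3 calls held in all 14 other settings in both arms, and the control-arm Tox call in 10 of 14, with ratios from 0.561 to 0.867. The IRF4-arm Tox2 call held in 12 of 14, and its ratio was 0.933 when cells were thinned to 2000 UMIs. Without cells carrying cycle gene UMIs, the Nr4a2 ratios became 3.10 in the control arm and 2.37 in the IRF4 arm.

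**Figure D2:**
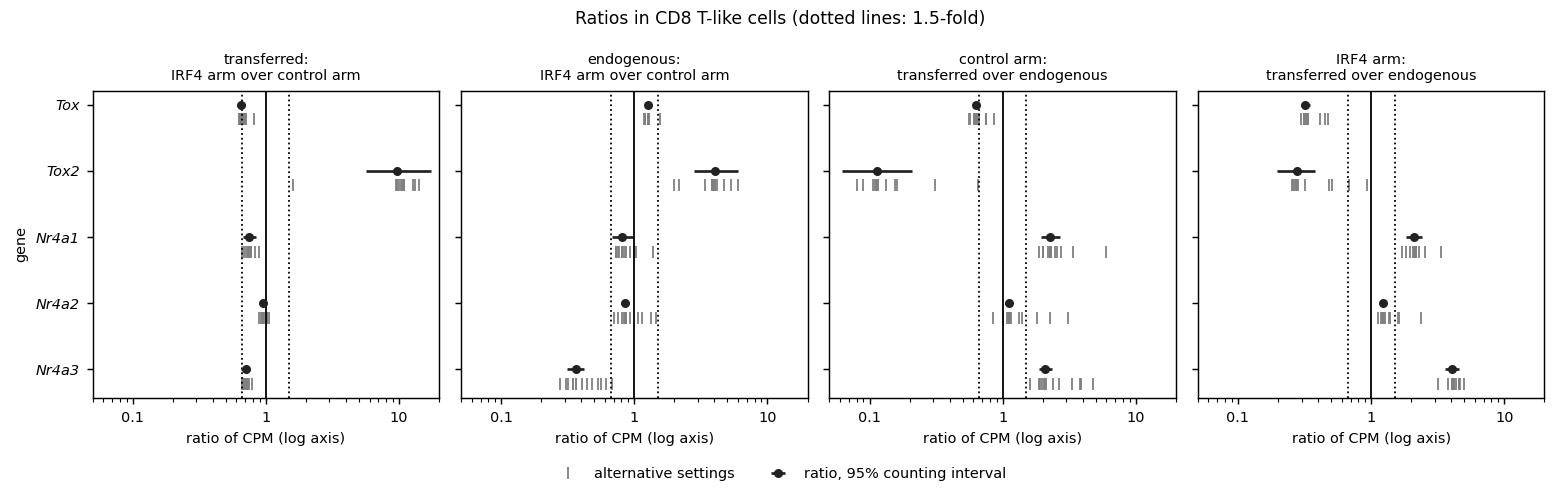
Ratio of CPM (log axis) of each gene in the 4 comparisons of CD8 T-like cells, with points and bars for the ratio and its 95% counting interval, grey ticks for the 14 alternative settings, and dotted lines at 1.5-fold. Tox lies left of 1 in 3 panels and right of 1 between the endogenous libraries (1.27), and Nr4a3 lies left of 1 between arms and right of 1 for transferred over endogenous cells.

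Within each library the NR4A transcripts stood at higher levels in CD8 T-like cells rich in cytokine RNA. Most NR4A UMIs still lay in the other CD8 T-like cells. Cells were placed in a cytokine burst when Ifng, Xcl1, Ccl3 and Ccl4 together passed 1% of their UMIs, which held for 21, 165, 34 and 13 cells (4.54%, 8.45%, 1.67% and 1.88%) in the order transferred IRF4, transferred control, endogenous IRF4 and endogenous control. Nr4a1 in burst cells stood at 128, 164, 121 and 53.0 CPM, against 27.2, 30.5, 11.9 and 16.3 CPM in the other cells. Those are ratios of 4.70 (3.49 to 6.25), 5.39 (4.93 to 5.89), 10.1 (8.11 to 12.6) and 3.25 (2.02 to 5.02). Nr4a3 showed ratios of 4.70, 4.30, 12.1 and 3.62, and Nr4a2 of 2.05, 2.57, 6.86 and 4.78. The 3 NR4A genes were thus higher in burst cells of all 4 libraries. Tox was not, with ratios of 0.538 (0.300 to 0.893) and 0.518 (0.451 to 0.592) in the transferred libraries and 1.32 (1.15 to 1.51) and 1.28 (1.01 to 1.59) in the endogenous ones. Burst cells were deeper than others in the endogenous libraries, with medians of 21369 and 23189 UMIs against 10374 and 8548. Leaving burst cells out moved the Nr4a1 ratio between transferred arms to 0.894 (0.792 to 1.01) and the Nr4a3 ratio to 0.785 (0.716 to 0.860).

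Tox followed Pdcd1 in all 4 libraries. Cells with a Pdcd1 UMI held 67.6, 103, 215 and 183 CPM of Tox, against 18.4, 26.0, 57.2 and 66.9 CPM in cells without one. The ratios were 3.67 (2.52 to 5.56), 3.95 (3.36 to 4.68), 3.77 (3.35 to 4.25) and 2.74 (2.35 to 3.22), with all 4 intervals above 1. Tox2 had a matching ratio of 5.33 (3.14 to 9.84) in the endogenous IRF4 library, where it was measured. Nr4a2 stood with Pdcd1 more in endogenous cells, with ratios of 1.37 and 1.82 in the transferred libraries, 3.82 (3.25 to 4.51) in endogenous IRF4 and 22.5 (14.5 to 36.9) in endogenous control. Nr4a1 had ratios of 0.928, 0.828, 1.04 and 1.62, and Nr4a3 of 0.686, 1.08, 1.10 and 8.44. Cells with a Pdcd1 UMI were the deeper ones, with medians from 13379 to 24207 UMIs against 6652 to 10524 without.

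The arm difference of endogenous cells depended on this split. Among Pdcd1-negative endogenous CD8 T-like cells Nr4a2 stood at 30.3 CPM in 673 IRF4-arm cells and 7.31 CPM in 332 control cells (ratio 4.14, 2.59 to 6.97). Among Pdcd1-positive ones it stood at 116 CPM in 1359 cells and 164 CPM in 358 cells (ratio 0.703, 0.658 to 0.753). Nr4a3 had ratios of 2.12 (1.19 to 4.03) in Pdcd1-negative and 0.278 (0.239 to 0.323) in Pdcd1-positive cells. In Pdcd1-negative cells these ratios rested on 156 IRF4-arm and 20 control Nr4a2 UMIs, and on 60 and 15 Nr4a3 UMIs. For both genes the 2 subsets thus lay on opposite sides of 1, and no replicate tests that difference.

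Cycling and stem-like cells divided the genes in other ways. Cells with a UMI of Mki67, Top2a, Birc5, Cdk1 or Ccnb2 held less Nr4a1 than the other cells in the transferred libraries (ratios 0.543, 0.421 to 0.708, and 0.544, 0.495 to 0.600). In the endogenous libraries the ratios were 0.930 (0.747 to 1.17) and 1.91 (1.32 to 2.83). Tox had ratios of 0.979 and 1.05 in transferred and 1.55 and 1.67 in endogenous cells, and Nr4a2 of 0.883 and 0.951 against 1.90 and 3.54. Cycle gene UMIs thus went with more Tox and Nr4a2 in endogenous cells and with neither in transferred cells, where those intervals include 1. Cells with a cycle gene UMI were the deeper ones, with medians from 16023 to 28954 UMIs against 6719 to 8891 without. Cells with a Tcf7 UMI held less Tox than those without in the endogenous libraries (0.615, 0.576 to 0.656, and 0.528, 0.464 to 0.600) and in transferred IRF4 cells (0.783, 0.675 to 0.908), but more in transferred control cells (1.38, 1.25 to 1.53). For Nr4a3 that ratio was 2.58 (2.13 to 3.13) in endogenous IRF4 cells and 0.344 (0.249 to 0.467) in endogenous control cells. Endogenous cells with a Tcf7 UMI were the shallower ones, with medians of 7494.5 and 7484 UMIs against 14696 and 10694.5 without.

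**Figure D3:**
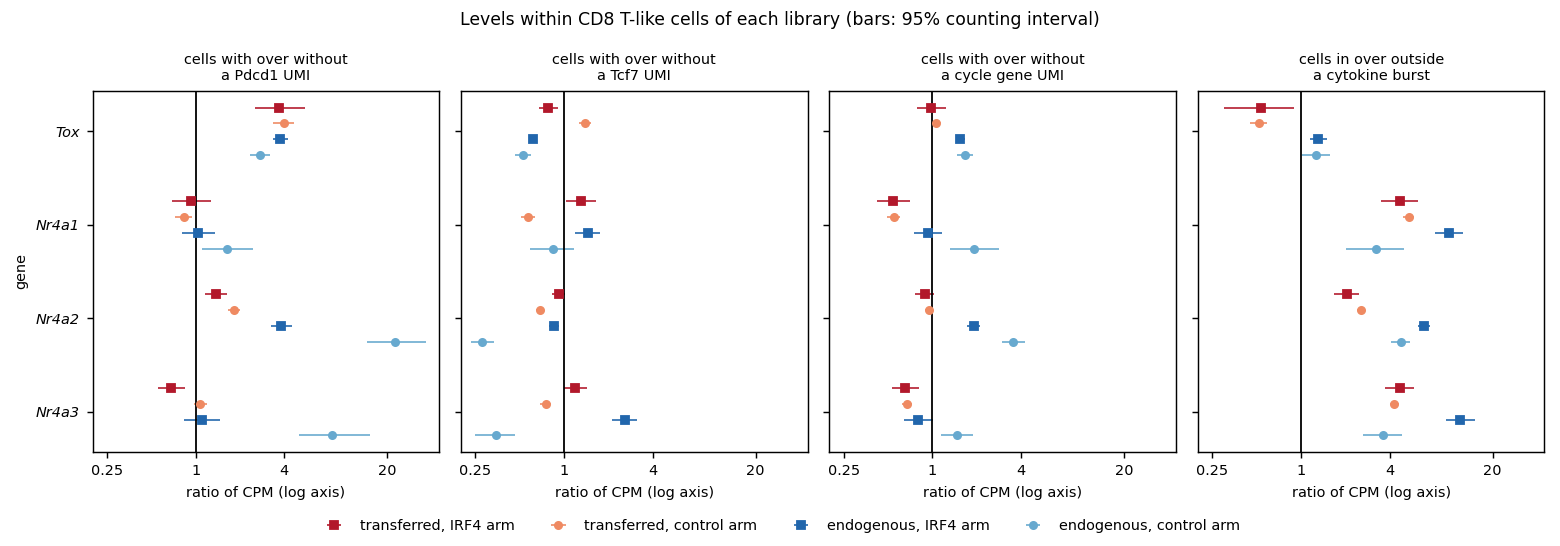
Ratio of CPM (log axis) of Tox and the NR4A genes between subsets of CD8 T-like cells of 1 library, with squares for the IRF4 arm, circles for the control arm, red tones for transferred and blue tones for endogenous cells, and bars for the 95% counting interval. The NR4A points lie right of 1 for cytokine burst cells in all 4 libraries, and the Tox points lie right of 1 for cells with a Pdcd1 UMI (2.74 to 3.95).

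Single cells showed the same grouping. Each CD8 T-like cell was thinned to 5000 UMIs, which kept 452, 1826, 1838 and 637 cells and left out 11, 127, 194 and 53. In transferred control cells Nr4a2 was found in 67.5% (60.6 to 73.8) of 206 cells with Nr4a1 and in 28.5% (26.3 to 30.8) of cells without it. Nr4a3 was found in 53.9% (46.8 to 60.8) and 17.1% (15.3 to 19.0) of the same cells. In the transferred IRF4 library the matching shares were 54.3% and 30.8% for Nr4a2, while Nr4a3 was in 23 of 46 cells with Nr4a1 and in 13.8% of those without. In endogenous IRF4 cells they were 45.1% and 20.8%, and 17.1% and 3.42%, and in endogenous control cells 46.4% and 16.4%, and 35.7% and 3.94%. In all 4 libraries the cells with an Nr4a1 UMI thus carried the other 2 NR4A transcripts more often than the cells without.

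Tox joined this group only with Nr4a2 and only in the endogenous libraries. In transferred control cells Nr4a1 was found in 6.97% (5.05 to 9.34) of 588 cells with Tox and in 13.3% (11.5 to 15.3) of cells without it. In transferred IRF4 cells those shares were 6.06% and 11.3%, with overlapping intervals, and in the endogenous libraries 3.68% with and 5.20% without Tox in the IRF4 arm and 4.80% with and 4.13% without in the control arm. Nr4a3 was not found more often with Tox in any library. With and without Tox its shares were 11.1% and 19.3% in transferred IRF4 cells and 18.2% and 22.7% in transferred control cells. In endogenous cells they were 2.68% and 5.31% in the IRF4 arm and 5.20% and 5.43% in the control arm. Nr4a2 went with Tox in the endogenous libraries, at 29.7% (26.7 to 32.8) with and 14.5% without it in the IRF4 arm and 27.2% and 11.6% in the control arm. In transferred cells the shares were 34.3% and 32.9%, and 35.2% and 31.8%. Tox2 was found in 8.26% (6.54 to 10.3) of endogenous IRF4 cells with Tox and 2.44% (1.55 to 3.64) of those without.

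Nr4a1 and Nr4a2 were called higher in the IRF4 arm in several endogenous myeloid classes. Monocyte or macrophage-like cells held 61.4 CPM of Nr4a1 (56.2 to 66.9) in 653 cells against 28.4 CPM (26.3 to 30.7) in 1200 cells of the control arm, a ratio of 2.16 (1.92 to 2.43). Nr4a2 stood at 24.9 against 14.3 CPM there (ratio 1.75, 1.46 to 2.08), so 2 of the 2 measured genes were called, beside 17.6% of all measured genes. In cDC2-like cells Nr4a1 (3.79, 2.67 to 5.42) and Nr4a2 (2.11, 1.55 to 2.86) were called higher, 2 of 3 measured genes beside 13.4% of all, and Nr4a3 had a ratio of 0.957 (0.611 to 1.47). In cDC1-like cells Nr4a1 (1.60), Nr4a2 (1.73) and Nr4a3 (2.58) were all called higher beside 10.3% of all measured genes. The Nr4a3 ratio there rested on few cells, since 2 cells carried at least 50% of its UMIs in each arm. In the IRF4 arm 6 of 68 cDC1-like cells carried an Nr4a3 UMI, so the call does not describe the class as a whole. In nonclassical monocyte-like cells Nr4a2 was called higher (3.57, 2.31 to 5.60) and Nr4a1 was not (1.27), 1 of 2 measured genes beside 6.56% of all. Nr4a3 stayed under 10 CPM in both monocyte classes. In pDC-like cells Nr4a1, the 1 measured gene, was called lower (0.317, 0.061 to 1.05), on 3 and 23 UMIs, beside 15.8% of all.

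Many genes of the early response list were also called higher in these classes. Of 18 measured genes of that list in monocyte or macrophage-like cells 12 were called higher, Fosb (ratio 5.01), Fos (3.81), Klf2 (3.76) and Egr1 (3.48) among them, and 1, Myc (0.523), lower. Their median log2 difference was 1.06, against -0.05 over all measured genes. In cDC2-like cells 12 of 19 were called higher and 0 lower, in cDC1-like cells 9 of 16 and 0, and in nonclassical monocyte-like cells 13 of 18 and 2. In pDC-like cells, where Nr4a1 was called lower, 10 of 16 were called higher and 2 lower. Lymphoid classes of the same library also had more called higher than lower, at 9 and 0 of 17 in CD4 T-like cells, 9 and 0 of 16 in B-like cells, 7 and 0 of 16 in gamma delta T-like cells, 6 and 1 of 16 in NK-like cells, 6 and 4 of 19 in Treg-like cells and 3 and 1 of 17 in CD8 T-like cells. Heat shock genes that mark handling stress were called higher for Hspa1a (ratio 1.99) and Hspa1b (1.71) in monocyte or macrophage-like cells, 2 of 6 measured. In cDC2-like cells 3 of 6 were called higher, namely Hspa1a (2.23), Dnajb1 (1.96) and Hspa1b (1.80), and in cDC1-like, nonclassical monocyte-like and pDC-like cells 0 of 6. In lymphoid classes 2 were called higher and 0 lower in B-like cells, and 2 and 1 in gamma delta T-like cells. The counts were 1 and 0 in NK-like and in CD8 T-like cells, 0 and 3 in Treg-like cells and 0 and 0 in CD4 T-like cells. The part of handling in the NR4A ratios was not tested.

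Lymphoid classes outside CD8 T cells did not share 1 direction. In NK-like cells Nr4a1 was called lower (0.582, 0.417 to 0.816) and Nr4a2 higher (1.79, 1.39 to 2.32), 2 of 4 measured genes beside 4.35% of all. In Treg-like cells Nr4a1 was called higher (1.59, 1.16 to 2.20) and Nr4a3 lower (0.572, 0.412 to 0.791), 2 of 4 beside 24.1%. In CD4 T-like cells Tox was called higher (1.60, 1.12 to 2.30) and Nr4a1 higher (7.48, 2.98 to 24.2), 2 of 4 beside 19% of all. The Nr4a1 value there came from 44 UMIs against 5, with 4 cells carrying at least 50% of the 44. B-like cells had Nr4a1 (1.61), Nr4a2 (5.39) and Nr4a3 (24.6) called higher, 3 of 3 beside 24.8%, but 1 cell carried 39 of the 41 Nr4a3 UMIs of the IRF4 arm. Without that cell the Nr4a3 level was 3.90 CPM, against 3.10 CPM in the control arm. In gamma delta T-like cells 3 of 4 measured genes were called beside 24.3%, on 2 to 13 UMIs each.

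**Figure D4:**
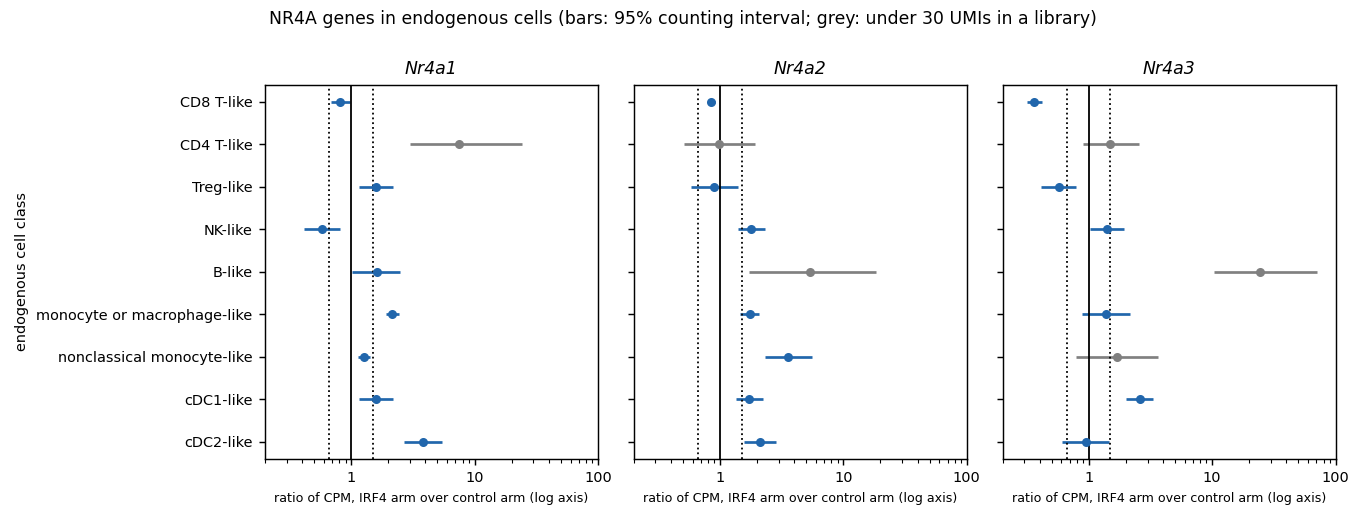
Ratio of CPM, IRF4 arm over control arm (log axis), of the 3 NR4A genes in endogenous cell classes, with bars for the 95% counting interval, dotted lines at 1.5-fold and grey points where a library held under 30 UMIs. Nr4a1 and Nr4a2 lie right of 1 in the 2 monocyte classes and in cDC1-like and cDC2-like cells (pDC-like cells are not drawn), and Nr4a3 lies left of 1 in CD8 T-like (0.363) and Treg-like (0.572) cells.

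Genes with the most similar pattern were found by Pearson correlation of log2(CPM + 1) over the 25 pairs of library and class, among 9968 genes. The pairs share libraries and depth, so the values are descriptions. Tox was most like Zap70, the kinase at the T cell receptor (0.966), then Sh2d2a (0.963), a T cell adaptor gene, and Farp1 (0.961). Nr4a3 was most like Csrp1 (0.853), Pdcd1lg2, which encodes the PD-1 ligand PD-L2 (0.846), and Traf1 (0.817), and Nr4a2 most like Slc25a3 (0.883), Plscr1 (0.881) and Nup62 (0.861). Tox2 was most like Ptpn13 (0.831), Hjurp (0.824) and Apobec2 (0.816), and Nr4a1 most like Fam111a (0.757), Mboat7 (0.747) and Ddx3x (0.745). Among the 5 genes, Nr4a2 and Nr4a3 (0.736) and Tox and Tox2 (0.637) were the most alike pairs. Nr4a1 was not like Nr4a2 (0.175) or Nr4a3 (-0.016) across classes, although the 3 were found together in single CD8 T-like cells.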

How the data were processed

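Droplet 3' RNA libraries of 4 groups were analysed, with groups taken from the labels. The authors deposited unnormalised UMI counts for each gene in each barcode. The submitters' processing notes name Cell Ranger 3.0.2, STAR 2.6 and the mm10 build but no annotation. The labels' protocols also mention a nucleus suspension. Barcodes were kept at 1000 UMIs, 500 genes and at most 10% mitochondrial UMIs. Cells were gated by marker UMIs into 14 classes, with limits of 5 myeloid and 2 B cell UMIs per 10000. No doublet caller was run. The gates were revised once with values of the 5 genes in view, and the genes and lists were chosen with earlier results of these data known. UMIs were summed per class and library and scaled to CPM, with a pseudocount of 1 on the log2 scale. Intervals at 95% were exact Poisson for levels, conditional binomial for ratios and Clopper-Pearson for shares. Named genes were the 5 genes, list genes past 1.5-fold and the 3 genes most alike, with Pdcd1, Irf4, Nfatc1 and Tox4 added after their values were seen. Python 3.11.15, numpy 2.4.6, scipy 1.17.1 and pandas 2.3.3 were used. The calling rule was tested on simulated counts with changes well past 1.5-fold, so calls near that threshold and sparse genes were not tested.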

Additional observations from a re-analysis of the deposited data

Results flagged for a closer look

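Arm ratios (IRF4 over control) of the same gene lay on opposite sides of 1 in different cells, with at least 200 UMIs in both libraries and counting intervals that exclude 1. Classes other than CD8 T-like are given where the ratio passed 1.5-fold. The differences between cells were not tested, since each group had 1 library. Tox had a ratio of 0.650 in transferred and 1.27 in endogenous CD8 T-like cells. Nr4a1 had a ratio of 0.751 in transferred CD8 T-like cells and 2.16 in endogenous monocyte or macrophage-like cells. Nr4a2 had ratios of 0.946 in transferred and 0.853 in endogenous CD8 T-like cells, and 1.75 in endogenous monocyte or macrophage-like cells. Both CD8 ratios of Nr4a2 crossed 1 in 4 of 14 other settings, reaching 1.06 in transferred and 1.45 in endogenous cells.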

How the results depend on the processing

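Of 280 ratios of single genes under 14 alternative settings in the 4 CD8 comparisons, 197 stayed within the counting interval of the reported ratio and 83 moved outside it, and no called ratio changed sign. Between transferred arms, the 1 called gene became 0 without the limit on myeloid and B transcripts, with a mean over cells, with a pseudocount of 5, without cells with cycle gene UMIs, and without the 6% of cells with the most UMIs. It became 2 with no filter on low values (Tox2 higher, Tox lower) and with cells thinned to 2000 UMIs (Tox2 higher, Nr4a3 lower). Between endogenous arms, the 2 called genes became 1 without cells with cycle gene UMIs (Nr4a3) and with cells thinned to 2000 UMIs (Tox2). Fewer cells or UMIs enter 3 of these settings, and the cause was otherwise not tested. The counts for transferred over endogenous cells stayed within 1.5 times in both arms. Alternatives with cells carrying a Pdcd1 UMI and without the cell richest in a gene were chosen after seeing the data. No paired analysis was possible because each group holds 1 library. Tox2 rested on few UMIs, with 20 to 44 in 3 of the 4 CD8 classes. The lowest count was in transferred control cells, the class with the most UMIs in all (55491087).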

Other observations

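In the endogenous libraries gamma delta T-like cells held 13 Nr4a3 UMIs in 152 cells of the IRF4 arm and 2 in 85 cells of the control arm, a ratio of 4.05 with a counting interval of 0.917 to 36.9. That interval includes 1. TGACG counts of the Nr4a1, Nr4a2 and Nr4a3 windows were chosen for display after they had been seen.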
